A study of Mus musculus with 9 samples.

Results

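The livers of 9 female mice were examined for 10 genes that break down tryptophan and make NAD: Tdo2, Afmid, Kmo, Kynu, Haao, Qprt, Acmsd, Aadat, Nampt and Nmnat1. They were found as the probe sets whose only gene symbol in the array annotation was one of these names, and each gene had 1 probe set, so 10 of 28815 probe sets and 10 of 19935 named genes are described. The study asked how liver mRNA levels in calorie-restricted mice compare with those in mice that lack DGAT1. This enzyme joins a fatty acid to diacylglycerol, which makes a triglyceride. All mice were on a C57BL/6J background and were 15 to 16 months old. The labels name 1 standard chow for all 3 groups, and the sample titles a caloric restriction diet for the WTCR mice. The study's methods give a standard chow for all studies and also call the food of the WTCR mice a CR diet. WTAL mice were wild-type and ate ad libitum, WTCR mice were wild-type and had been placed on short-term calorie restriction (CR), and Dgat1-/-AL mice carried the null allele and ate ad libitum. Per the study, the restriction was made stricter partway through, and the WTCR mice lost weight. Each group had 3 mice (n = 3), and each mouse gave 1 Affymetrix Mouse Gene 1.0 ST array of whole-liver RNA. In whole liver, fewer cells of a type and less RNA per cell cannot be told apart.

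Liver is the main site of tryptophan breakdown. The kynurenine pathway opens the ring of tryptophan and carries it through kynurenine to an unstable intermediate, which either closes spontaneously to quinolinate and becomes NAD (the de novo arm) or is diverted by the decarboxylase ACMSD towards complete oxidation. A salvage arm makes NAD from nicotinamide, which is released whenever NAD is consumed by enzymes such as the sirtuins and the poly(ADP-ribose) polymerases (PARPs). The genes are therefore grouped as a de novo arm (Tdo2, Afmid, Kmo, Kynu, Haao, Qprt), a pair of branch enzymes that lead away from NAD (Acmsd, Aadat) and a salvage arm (Nampt, Nmnat1).

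The log2 signal of Dgat1 was 7.86, 5.67 and 8.04 in WTAL replicates 1, 2 and 3, 8.89, 8.76 and 8.56 in the WTCR arrays and 6.14, 5.84 and 5.39 in the Dgat1-/-AL arrays. The Dgat1 signal of the array labelled WTAL replicate 2 therefore goes against its label. Whether this array was mislabelled was not tested, and for each of the 10 genes the values against WTAL are also given without it. Dgat1-/-AL replicate 1 stood apart from the other arrays on the second principal component (score -42.13 against -15.94 to 15.28), and the results that turn on it are named below. The first component set the WTCR arrays (25.96 to 30.43) apart from all others (-20.61 to -10.22). The labelled tissue was borne out by its markers: the 11 measured hepatocyte markers had mean log2 signals of 10.76 to 14.25, whereas markers of kidney tubule, adipocytes and pancreatic acini lay at 3.45 to 6.75 and none of them was called in any comparison.

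The promoter of Nampt is shown because this gene had the largest change of the 10 under CR. It is the 250 bases before the annotated start in RefSeq (GRCm38.p6), on the plus strand, at chr12:32820085-32820334. Capitals mark GC boxes (GGGCGG on either strand), a motif searched for after the data had been seen.
Nampt: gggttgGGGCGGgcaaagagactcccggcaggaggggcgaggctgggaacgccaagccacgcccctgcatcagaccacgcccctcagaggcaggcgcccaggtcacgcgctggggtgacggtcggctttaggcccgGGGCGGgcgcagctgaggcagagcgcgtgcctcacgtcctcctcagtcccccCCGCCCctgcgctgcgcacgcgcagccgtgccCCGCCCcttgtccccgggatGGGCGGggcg
The Nampt window was 75.6% G and C with 27 CG dinucleotides and 5 GC boxes, and 3.61% of 32851 promoter windows of this length were as rich in G and C or richer. The median window was 52.4% G and C with 6 CG dinucleotides. A GC box stood in 4 of the 8 genes whose windows were searched (Aadat, Afmid, Nampt and Nmnat1) and in 32.7% of all windows. On both strands, none of the 8 windows held an E-box (CACGTG, in 6.02% of all windows), a D-box core (TTANGNAA, 10.3%), a DR1 element (0.0335%), a glucocorticoid element (0.387%) or an ATF4 element core (TGATGNAA, 3.45%). These are matches of letters in a short window and say nothing on whether a factor binds.

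In livers of calorie-restricted mice, the salvage gene Nampt and both branch genes, Acmsd and Aadat, were higher than in WTAL livers, and no gene of the de novo arm was called. A gene was called where its fold was over 1.3 and its limma p, not adjusted for the number of probe sets, was under 0.05, the rule that the study used. By this rule 3 of the 10 genes were higher and 0 lower in WTCR, against 4.25% of all probe sets higher and 3.81% lower. These 3 genes were also the only ones of the 10 whose WTCR arrays did not overlap the WTAL arrays, which held for 11.2% of all probe sets in the higher and 8.44% in the lower direction. With p adjusted over all probe sets, Nampt alone passed (1.62% of all probe sets passed in the higher and 1.41% in the lower direction). The median log2 fold change was 0.11 over the 10 genes and 0.0023 over all probe sets.

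In Dgat1-/-AL livers, 2 of the 10 genes were higher than in WTAL and 0 lower, again Acmsd and Aadat, against 0.465% of all probe sets higher and 0.760% lower. The study's supplement already lists both genes, from these same arrays, as raised in both groups. Since the 10 genes were chosen with earlier results of these data known, the shares of all probe sets are no test of the set. Kynu, Acmsd and Aadat were higher in every Dgat1-/-AL array than in any WTAL array, which held for 3.16% of all probe sets (3.86% lay lower without overlap). No probe set of the array passed limma's adjusted p in this comparison, in which 1316 of 28815 probe sets had an unadjusted p under 0.05. The median log2 fold change was -0.02 over the 10 genes and -0.0023 over all probe sets. Both comparisons use the same 3 WTAL arrays, so their values are given side by side and are not independent of each other.

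Compared directly, 1 gene was higher in WTCR than in Dgat1-/-AL livers (Nampt) and 2 were lower (Kynu and Acmsd), against 4.66% of all probe sets higher and 3.93% lower. Nampt and Kynu did not overlap between these groups (9.05% of all probe sets were higher without overlap and 7.10% lower), and Nampt alone passed the adjusted p (1.77% of all probe sets in that direction and 1.29% in the other). The median over the 10 genes was -0.04, and over all probe sets 0.0053. The plot of fold changes by arm shows these calls as filled points.

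**Figure D1:**
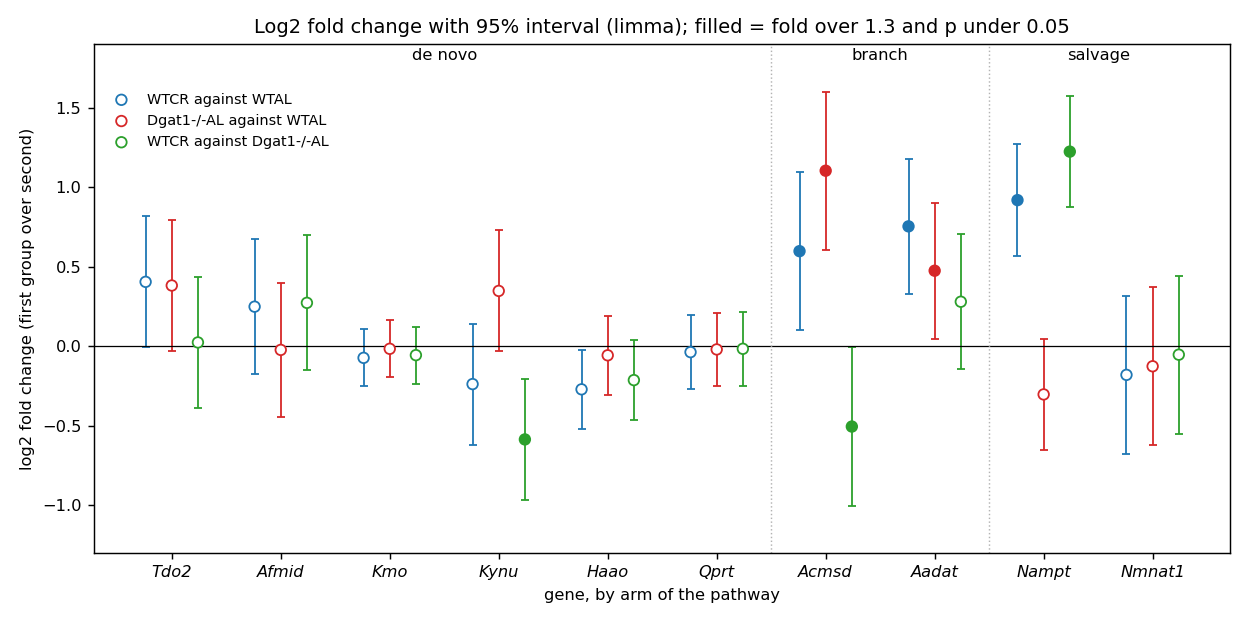
Log2 fold change (y axis) of each of the 10 genes (x axis, grouped by arm) in the 3 comparisons, with 95% limma intervals as bars and filled points for genes called at a fold over 1.3 and p under 0.05. Acmsd and Aadat are filled in both comparisons against WTAL, Nampt only where WTCR is compared, and in the de novo arm only Kynu is filled, in WTCR against Dgat1-/-AL.

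NAMPT makes nicotinamide mononucleotide from nicotinamide and sets the rate of the salvage arm. Its log2 signal was 8.99, 8.84 and 9.01 in the WTAL arrays, 10.02, 9.73 and 9.85 in the WTCR arrays and 8.28, 8.92 and 8.72 in the Dgat1-/-AL arrays. Every WTCR array was above every other array, and the lowest value came from Dgat1-/-AL replicate 1. CR thus came with a 1.89-fold higher Nampt signal than WTAL (0.92 ± 0.15 on the log2 scale, SE, adjusted p = 0.021). In Dgat1-/-AL livers the log2 fold change against WTAL was -0.30 ± 0.15 (95% interval -0.65 to 0.05), which did not pass the test. The gene was 2.33-fold higher in WTCR than in Dgat1-/-AL livers (1.22 ± 0.15, adjusted p = 0.0089). With each of the 9 arrays left out in turn the change in WTCR was 0.84 to 0.99 and the direct difference 1.04 to 1.36, and both stayed called. Without the array labelled WTAL replicate 2, Nampt was at 0.87 in WTCR and -0.36 in Dgat1-/-AL. The value in Dgat1-/-AL was -0.13 without replicate 1 of that group and became a call, at -0.45, without replicate 2.

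NMNAT1 is the nuclear enzyme that turns the mononucleotides of both arms into dinucleotides. Its log2 signal was 7.23, 7.76 and 7.41 in WTAL, 7.31, 7.36 and 7.19 in WTCR and 6.82, 7.53 and 7.67 in Dgat1-/-AL arrays. The 3 groups overlapped, and the log2 fold change was -0.18 ± 0.22 in WTCR and -0.13 ± 0.22 in Dgat1-/-AL against WTAL. The intervals (-0.68 to 0.32 and -0.62 to 0.37) both reach past a 1.3-fold decrease (-0.38). Both values lay near 0 without WTAL replicate 2, at -0.03 in WTCR and 0.02 in Dgat1-/-AL.

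ACMSD removes a carboxyl group from the intermediate that would otherwise close to quinolinate, so it stands where tryptophan carbon leaves the route to NAD. Its log2 signal was 7.72, 7.74 and 7.52 in WTAL, 7.96, 8.70 and 8.11 in WTCR and 8.88, 8.36 and 9.05 in Dgat1-/-AL arrays. Every WTCR and every Dgat1-/-AL array lay above every WTAL array, while WTCR replicate 2 lay within the Dgat1-/-AL range. Acmsd was 2.15-fold higher in Dgat1-/-AL than in WTAL livers (1.10 ± 0.22 on the log2 scale, SE, 95% interval 0.60 to 1.601, adjusted p = 0.96). In WTCR livers it was 1.51-fold higher (0.60 ± 0.22, 95% interval 0.10 to 1.10, adjusted p = 0.23). The change in Dgat1-/-AL stayed called with each array left out (0.96 to 1.304; 1.14 without the array labelled WTAL replicate 2 and 1.04 without Dgat1-/-AL replicate 1). The change in WTCR was 0.64 without WTAL replicate 2, but the call ended without WTAL replicate 3 (0.53) or WTCR replicate 2 (0.38).

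In the direct comparison Acmsd was lower in WTCR livers by -0.51 ± 0.22 (1.42-fold, 95% interval -1.004 to -0.01, adjusted p = 0.31), at the edge of the rule. The call ended in 7 of the 9 fits that left out 1 array, which gave -0.73 to -0.36, and held only without WTCR replicate 2 or without Dgat1-/-AL replicate 2. It ended without each of the WTAL arrays too, which are not part of this comparison. Leaving out 1 of those kept the value at -0.51 and altered only the estimate of the spread. It also ended where only the arrays of the 2 groups compared were fitted and where the replicate number was a block (-0.51 in each). That the numbers pair these 2 groups was taken from the data and not from the labels.

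AADAT is an aminotransferase that turns kynurenine into kynurenate, a side branch of the pathway, and that also acts in lysine breakdown. Log2 signals of Aadat were 8.40, 8.52 and 8.53 in WTAL, 9.54, 9.30 and 8.87 in WTCR and 9.28, 8.70 and 8.89 in Dgat1-/-AL arrays. All WTCR and Dgat1-/-AL arrays were above the WTAL arrays, and the WTCR and Dgat1-/-AL ranges overlapped. The gene was 1.68-fold higher in WTCR (0.75 ± 0.19 on the log2 scale, SE, 95% interval 0.33 to 1.18, adjusted p = 0.077), and this stayed called with each array left out (0.60 to 0.94; 0.77 without WTAL replicate 2). It was 1.39-fold higher in Dgat1-/-AL livers (0.47 ± 0.19, 95% interval 0.05 to 0.90, adjusted p = 0.97). That second call was fragile. It ended without WTAL replicate 1 (0.43), 2 (0.49) or 3 (0.50) and without Dgat1-/-AL replicate 1 (0.31) or 3 (0.51). The direct difference between WTCR and Dgat1-/-AL was 0.28 ± 0.19 (95% interval -0.15 to 0.71), which did not pass the test. It too turned on single arrays, since it became a call without WTCR replicate 3 (0.47) or Dgat1-/-AL replicate 1 (0.44) and was 0.13 without WTCR replicate 1.

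**Figure D2:**
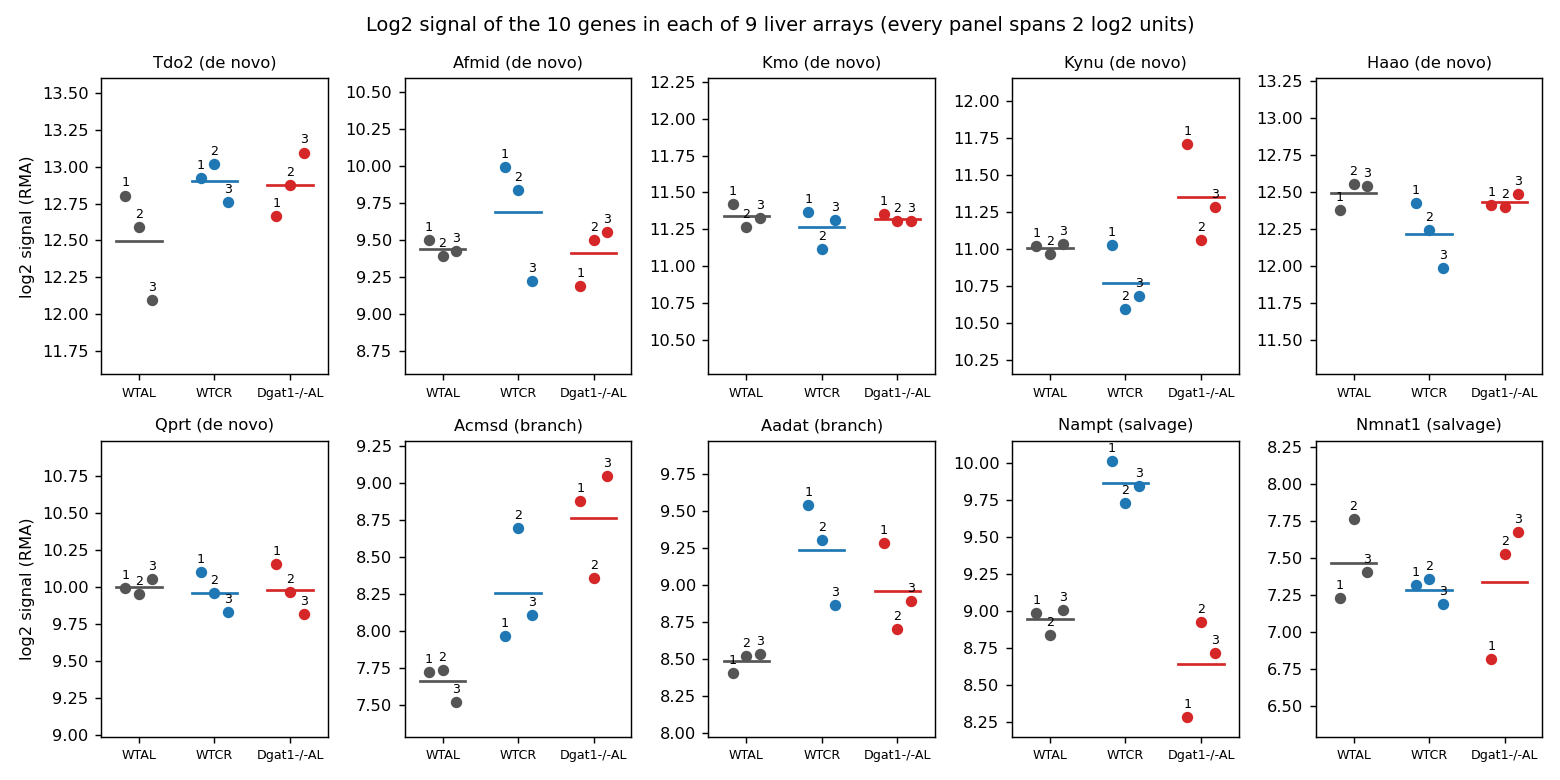
Log2 signal after RMA (y axis, 2 log2 units in every panel) of each gene in each array, arranged by group (x axis); numbers are replicates and lines are group means. Nampt is highest in the 3 WTCR arrays (9.73 to 10.02), and Acmsd is lowest in the 3 WTAL arrays (7.52 to 7.74); signals of different genes are not comparable with each other.

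In the de novo arm the 6 genes gave log2 fold changes of -0.27 to 0.40 in WTCR and -0.06 to 0.38 in Dgat1-/-AL against WTAL, with medians of -0.06 and -0.02, and 0 of 6 were called in either. TDO2 opens the indole ring in the first and committed step. Log2 signals of Tdo2 were 12.80, 12.59 and 12.10 in WTAL, 12.93, 13.02 and 12.76 in WTCR and 12.66, 12.88 and 13.10 in Dgat1-/-AL arrays. The spread was widest in WTAL, where replicate 1 reached into both other groups. Tdo2 came to 0.40 ± 0.18 in WTCR and 0.38 ± 0.18 in Dgat1-/-AL (95% intervals -0.01 to 0.82 and -0.03 to 0.79), just outside the rule. Both became calls without WTAL replicate 1 (0.56 and 0.54) or without Dgat1-/-AL replicate 1 (0.40 and 0.49), and neither did without WTAL replicate 2 (0.45 and 0.43). Without WTAL replicate 3 they were 0.21 and 0.18, and the value in WTCR was 0.17 after repeated quantile normalization. The direct difference was 0.02 ± 0.18 (95% interval -0.39 to 0.44).

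KYNU splits kynurenine and hydroxykynurenine. Kynu had log2 signals of 11.02, 10.97 and 11.03 in WTAL, 11.03, 10.60 and 10.68 in WTCR and 11.72, 11.06 and 11.29 in Dgat1-/-AL arrays. Every Dgat1-/-AL array lay above all others, with replicate 1 highest, and WTCR replicates 2 and 3 lay below the WTAL arrays. The WTCR livers had 1.5-fold less Kynu signal than the Dgat1-/-AL livers (-0.59 ± 0.17 on the log2 scale, SE, 95% interval -0.97 to -0.21, adjusted p = 0.11). This stayed called with each array left out, at -0.73 to -0.41, the smallest size being that without Dgat1-/-AL replicate 1. Against WTAL neither side passed the rule (-0.24 ± 0.17 in WTCR and 0.35 ± 0.17 in Dgat1-/-AL; -0.26 and 0.33 without WTAL replicate 2). The value in Dgat1-/-AL became a call, at 0.49, without replicate 2 of that group and was 0.17 without its replicate 1.

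HAAO makes the unstable intermediate at which the routes to NAD and to oxidation part. Haao had log2 signals of 12.38, 12.55 and 12.54 in WTAL, 12.43, 12.25 and 11.98 in WTCR and 12.41, 12.40 and 12.49 in Dgat1-/-AL arrays. WTCR replicates 2 and 3 were the lowest of all arrays, but WTCR replicate 1 was above WTAL replicate 1. The log2 fold change of -0.27 ± 0.11 in WTCR had a 95% interval of -0.52 to -0.02 (adjusted p = 0.28), yet its fold of 1.21 was short of the rule. It was -0.24 without WTAL replicate 2, -0.25 without WTAL replicate 3 and -0.15 without WTCR replicate 3. It was called, at -0.43, where the deposited values were quantile-normalized once more. In Dgat1-/-AL livers Haao was at -0.06 ± 0.11 (-0.03 without WTAL replicate 2).

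AFMID, which frees kynurenine from its formyl form, had log2 signals of 9.50, 9.39 and 9.43 in WTAL, 9.997, 9.84 and 9.22 in WTCR and 9.19, 9.50 and 9.55 in Dgat1-/-AL arrays. WTCR replicates 1 and 2 were above all other arrays and replicate 3 was near the bottom, so that the change of 0.25 ± 0.19 in WTCR did not pass the test. Without WTCR replicate 3 it was called, at 0.48 against WTAL and 0.50 against Dgat1-/-AL, whereas without WTCR replicate 1 these were 0.09 and 0.12. Without WTAL replicate 2 Afmid was at 0.22 in WTCR and -0.05 in Dgat1-/-AL.

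KMO, the hydroxylase that feeds KYNU, had log2 signals of 11.42, 11.27 and 11.33 in WTAL, 11.37, 11.12 and 11.31 in WTCR and 11.35, 11.31 and 11.31 in Dgat1-/-AL arrays. QPRT, which turns quinolinate into the mononucleotide that enters NAD, had 9.99, 9.95 and 10.05 in WTAL, 10.10, 9.96 and 9.83 in WTCR and 10.16, 9.96 and 9.81 in Dgat1-/-AL arrays. Neither gene differed beyond the spread between mice, and their intervals were narrow. Against WTAL, Kmo was at -0.07 (95% interval -0.25 to 0.11) in WTCR and -0.02 (-0.20 to 0.16) in Dgat1-/-AL, and Qprt at -0.04 (-0.27 to 0.19) and -0.02 (-0.25 to 0.21). All of these intervals lie within a 1.3-fold change either way (0.38 on the log2 scale). Without WTAL replicate 2 Kmo was at -0.11 and -0.05 and Qprt at -0.06 and -0.045. Repeated quantile normalization moved Kmo in WTCR to -0.21, still not called.

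The arms were then set against each other within each array, as the mean difference of an arm's genes from their WTAL means. This is a description of chosen genes, with no test. The de novo mean was 0.01 ± 0.17 (SD, n = 3) in WTCR and 0.10 ± 0.04 in Dgat1-/-AL, and the salvage mean 0.37 ± 0.08 and -0.22 ± 0.38. In WTCR the salvage mean joins 0.92 for Nampt with -0.18 for Nmnat1. The branch enzymes were at 0.68 ± 0.26 in WTCR and 0.79 ± 0.29 in Dgat1-/-AL. De novo minus salvage was -0.28, -0.34 and -0.48 in the WTCR arrays, below all WTAL arrays (0.16, -0.11 and -0.05). In the Dgat1-/-AL arrays it was 0.78, 0.04 and 0.14, so that the group mean of 0.32 ± 0.40 rested mostly on replicate 1, where Nampt and Nmnat1 were both at their lowest. With the WTAL mean taken without replicate 2, the group means were -0.42 in WTCR and 0.26 in Dgat1-/-AL. Nmnat1 serves both arms, and with Nampt alone as the salvage arm the WTCR mean was -0.91 in place of -0.36.

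**Figure D3:**
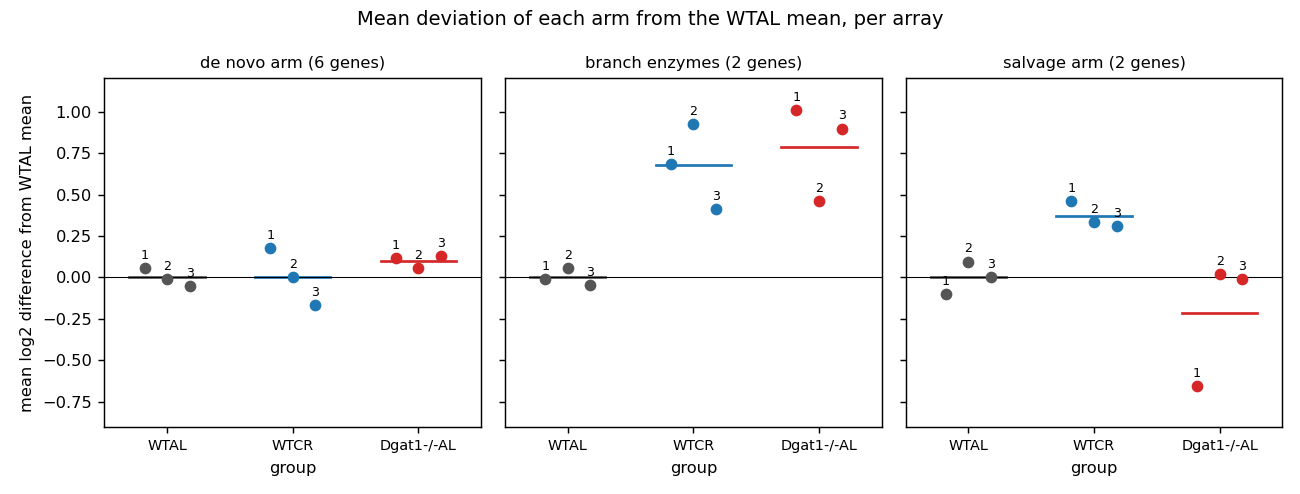
Average departure from WTAL in log2 units (y axis) over the genes of the de novo arm, the branch enzymes and the salvage arm (panels) in each array, arranged by group (x axis); numbers are replicates and lines are group means. The de novo arm stays between -0.17 and 0.18, and the branch enzymes are above WTAL in both other groups. The salvage arm is raised in the WTCR arrays, by Nampt and not by Nmnat1, and lowest in Dgat1-/-AL replicate 1 (-0.66).

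The plot of the calls with each array left out shows in how many of these fits each call held. Leaving out an array outside the 2 groups compared cannot move the fold change and alters only the estimate of the spread. A call that ended there, or that held there, does not speak to dependence on a mouse of the groups compared. Nampt in both comparisons with WTCR, Acmsd in Dgat1-/-AL, Aadat in WTCR and Kynu between WTCR and Dgat1-/-AL held in all 9 fits. Acmsd in WTCR held in 7, Aadat in Dgat1-/-AL in 4 and Acmsd between WTCR and Dgat1-/-AL in 2.

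**Figure D4:**
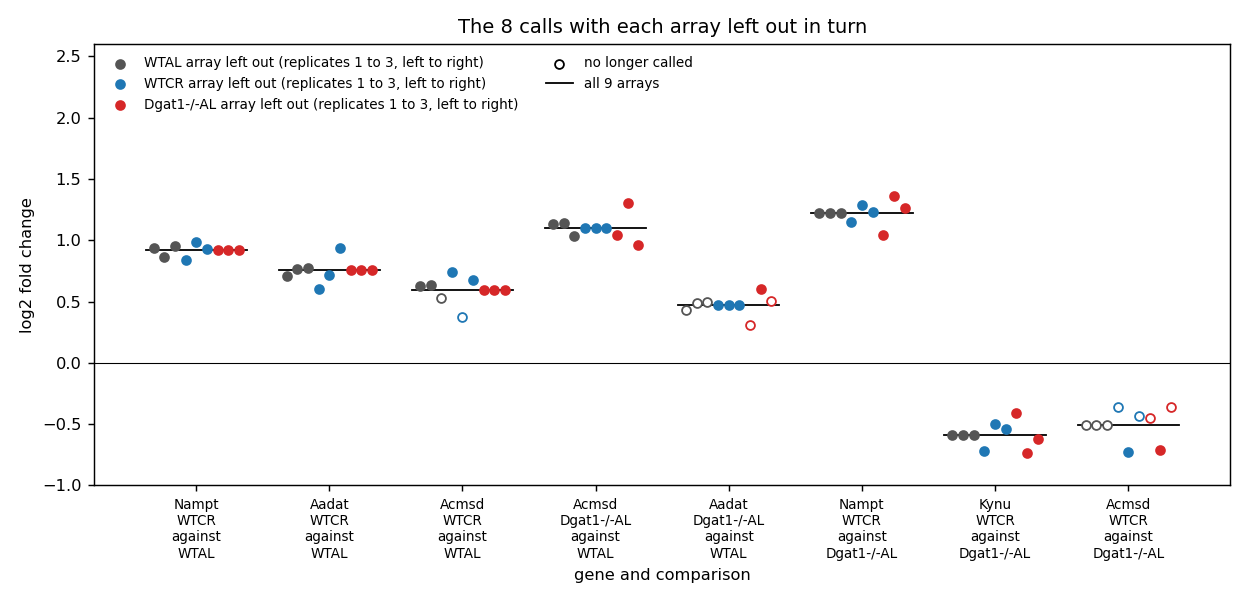
Log2 fold change (y axis) of each called gene and comparison (x axis) with 1 array left out at a time, coloured by the group of that array, with the value from all 9 arrays as a line and open points where the call ended. Open points are most frequent for Aadat in Dgat1-/-AL against WTAL (0.31 to 0.60 over the 9 fits) and for Acmsd in WTCR against Dgat1-/-AL (-0.73 to -0.36).

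The pattern of Nampt over the 9 arrays was most like those of Ces2a (Pearson r = 0.971), a carboxylesterase, Rpp40 (0.971), a subunit of ribonuclease P, and Phf14 (0.966). That of Aadat was most like Ctsl (0.969), the lysosomal protease cathepsin L, Dhtkd1 (0.966), a subunit of the oxoadipate dehydrogenase complex, and Pcif1 (0.962), an mRNA cap methyltransferase. For Acmsd the closest were Skor2 (0.923), Spata20 (0.915) and Tmub1 (0.910). These are the 3 highest of all probe sets with 1 symbol for each gene, over arrays that share the same group differences, and are given as a description.

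Around the 10 genes, 45 others of tryptophan and NAD metabolism were measured. In WTCR 3 were higher and 4 lower than in WTAL, in Dgat1-/-AL livers 0 of the 45 were called, and between WTCR and Dgat1-/-AL 3 were higher and 9 lower in WTCR. Over all probe sets the shares for WTCR against WTAL were 4.25% (higher) and 3.81% (lower), those for Dgat1-/-AL 0.465% and 0.760%, and those of the direct comparison 4.66% and 3.93%. Without WTAL replicate 2, a setting chosen for these lists after the data had been seen, the WTCR livers had 2 of the 45 higher and 5 lower, and the Dgat1-/-AL livers again had 0 called. Of the 7 first called in WTCR, Nadsyn1 was then lost, and Kyat1, a kynurenine aminotransferase, was added. Of 9 other enzymes of kynurenine and tryptophan, Ddc, the decarboxylase that makes serotonin and dopamine from their precursors, fell 2.54-fold in WTCR (-1.35 ± 0.18 on the log2 scale, SE, adjusted p = 0.012). Ddc signals on the log2 scale were 9.23, 8.80 and 9.47 in WTAL, 7.65, 8.06 and 7.76 in WTCR and 9.02, 9.31 and 9.29 in Dgat1-/-AL arrays, so that every WTCR array was below every other array. Got2, the mitochondrial aspartate aminotransferase, which also accepts kynurenine, was higher in WTCR by 0.62 ± 0.22 and 0.62 ± 0.23 at its 2 probe sets, and that call ended without WTAL replicate 1 (0.55) or WTCR replicate 1 (0.49). Ido2, a dioxygenase that like TDO2 opens the tryptophan ring, was below its Dgat1-/-AL level in WTCR livers by -0.74 ± 0.19, and Maoa, a monoamine oxidase, was higher by 0.67 ± 0.20. The dioxygenase Ido1 was not called in any comparison.

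Of 5 genes that carry the product of ACMSD on to acetyl-CoA, only Dhtkd1 was called, 1.76-fold higher in WTCR than in WTAL (0.81 ± 0.24, adjusted p = 0.13). It was at 0.42 ± 0.24 in Dgat1-/-AL, short of the rule. Aldh8a1, which takes the product of ACMSD a step further, was called in no comparison.

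Of 7 measured other makers of NAD and its precursors, Nadsyn1, the NAD synthetase that finishes the routes through nicotinic acid, was higher in WTCR by 0.53 ± 0.19 (adjusted p = 0.22). Its call against WTAL ended without WTAL replicate 2 (0.45), the array whose Dgat1 signal goes against its label, or without WTCR replicate 1 (0.38). Against Dgat1-/-AL it was higher by 0.61 ± 0.19. Naprt, which salvages nicotinic acid as NAMPT does nicotinamide, was higher in WTCR than in Dgat1-/-AL by 0.63 ± 0.22, a call that ended without WTCR replicate 1 or without Dgat1-/-AL replicate 2 or 3. Pnp, a phosphorylase that frees nicotinamide from its riboside, fell in WTCR relative to Dgat1-/-AL livers (-0.52 ± 0.07, adjusted p = 0.0097). Pnp had log2 signals of 10.54, 10.50 and 10.33 in WTAL, 10.18, 10.15 and 10.11 in WTCR and 10.68, 10.68 and 10.65 in Dgat1-/-AL arrays, so the 3 groups did not overlap with one another, although neither difference from WTAL reached 1.3-fold. The nicotinamide riboside kinases Nmrk1 and Nmrk2 and the other NMNATs (Nmnat2, Nmnat3) were not called.

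The 3 genes that clear nicotinamide were all lower in WTCR than in Dgat1-/-AL livers, the opposite direction to Nampt. Nnmt, which methylates nicotinamide, was lower by -0.56 ± 0.20, and the aldehyde oxidases Aox1 and Aox3, which oxidize the methylated product, by -0.46 ± 0.13 and -1.02 ± 0.20 (adjusted p = 0.036 for Aox3). For Aox3 the log2 signal was 10.35, 10.28 and 10.07 in WTAL, 9.99, 9.16 and 9.47 in WTCR and 10.83, 10.41 and 10.45 in Dgat1-/-AL arrays, with no overlap between the 3 groups. Against WTAL it fell 1.62-fold in WTCR (-0.69 ± 0.20, adjusted p = 0.13), the only one of the 3 called there. In Dgat1-/-AL against WTAL the values were 0.44 ± 0.20 for Nnmt, 0.16 ± 0.13 for Aox1 and 0.33 ± 0.20 for Aox3, none past the rule. Without Dgat1-/-AL replicate 1 the direct calls of Nnmt (-0.46) and Aox1 (-0.37) ended and that of Aox3 (-0.89) held. The Nnmt call also ended without WTCR replicate 1 (-0.48) or 3 (-0.38), and with the replicate number as a block among the arrays of these 2 groups (-0.56).

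Of 9 measured NAD-consuming enzymes other than sirtuins, the PARP family members Parp9 and Parp14, both known as interferon-induced genes, were lower in WTCR. Parp9 had log2 signals of 8.39, 8.31 and 8.44 in WTAL, 7.75, 7.61 and 7.95 in WTCR and 8.25, 8.40 and 8.30 in Dgat1-/-AL arrays. Its change in WTCR was -0.61 ± 0.09 (adjusted p = 0.016), and that of Parp14 was -0.77 ± 0.17 (adjusted p = 0.052). Against Dgat1-/-AL they were lower by -0.55 and -0.84 (adjusted p = 0.021 and 0.038). Parp1 and Parp2, which respond to DNA damage, were not called, nor were Parp3, Parp10, Tiparp, Bst1 and Sarm1.

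Of 4 genes of NADP synthesis and the redox use of NAD, Nudt12, a hydrolase of NAD and NADH, was below its Dgat1-/-AL level in WTCR livers (-0.57 ± 0.15), and Nadk, Nadk2 and Nnt were not called. None of 8 transporters of tryptophan, NAD or its precursors was called in any comparison. Their log2 fold changes against WTAL were -0.40 to 0.49 in WTCR and -0.09 to 0.43 in Dgat1-/-AL.

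**Figure D5:**
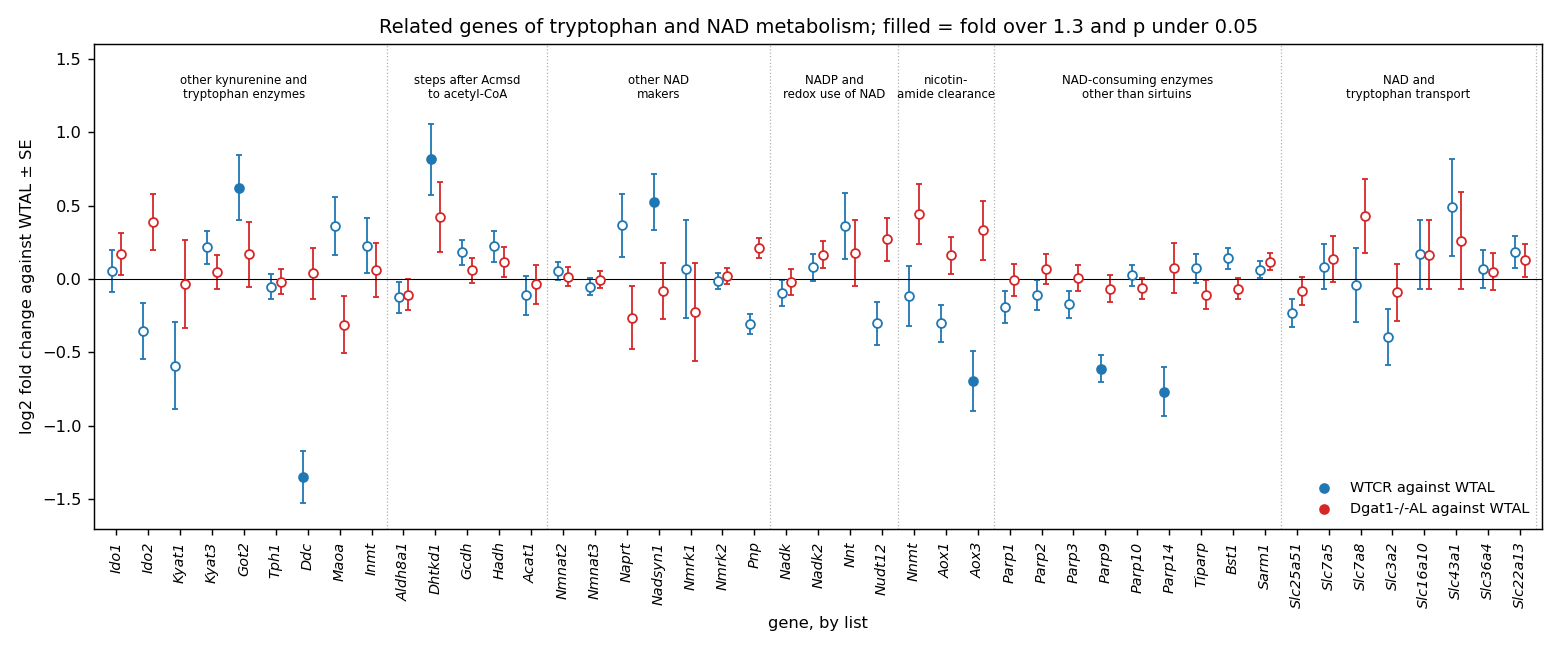
Log2 fold change against WTAL with its standard error (y axis) of 45 related genes by list (x axis), for WTCR and Dgat1-/-AL, with filled points for genes called. Filled points occur only for WTCR, with Ddc lowest at -1.35 and Dhtkd1 highest at 0.81.

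Other gene groups moved with the WTCR livers. Nampt is a known output of the circadian clock, and of 17 measured clock genes 10 were higher in WTCR than in WTAL (Per1, Per2, Per3, Cry1, Cry2, Nr1d2, Dbp, Tef, Hlf and Ciart) and Nfil3 was lower. None of the 17 was called in Dgat1-/-AL livers. The shares of all probe sets were 4.25% (higher) and 3.81% (lower) for WTCR, against 0.465% and 0.760% for Dgat1-/-AL. Without WTAL replicate 2 these 11 genes stayed called in WTCR and Bhlhe40 (higher) and Arntl (lower) joined them, while in Dgat1-/-AL none of the 17 was called. The core activators Arntl and Clock gave -0.90 ± 0.47 and -0.46 ± 0.22 in WTCR and were not called there with all 9 arrays. The hour of tissue collection and of the last meal is not given in the sources used here, and the part of the clock in the Nampt result was not tested.

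Markers of other liver cells were called too. Over all probe sets, 4.25% were called higher and 3.81% lower in WTCR against WTAL, and 0.465% and 0.760% in Dgat1-/-AL. Of 12 Kupffer cell and macrophage markers, 4 fell in WTCR livers and 4 in Dgat1-/-AL livers against WTAL, and the log2 of their summed signal was 12.27 to 12.88 in WTAL, 11.88 to 12.54 in WTCR and 12.01 to 12.46 in Dgat1-/-AL. The 4 measured markers of B and plasma cells all fell in WTCR livers, and 1 fell in Dgat1-/-AL livers, with summed signals of 7.44 to 8.44 in WTAL, 6.53 to 6.58 in WTCR and 6.69 to 7.25 in Dgat1-/-AL. Of 5 T and NK cell markers, 2 were lower in WTCR (7.78 to 7.997 in WTAL and 7.54 to 7.58 in WTCR). Mean log2 signals of single markers were 4.205 to 6.18 for T and NK cells and 3.77 to 5.83 for B and plasma cells. Both ranges lie within the 3.45 to 6.75 of kidney tubule, adipocyte and acinar markers, so these calls rest on low signals. Of 7 markers of sinusoidal endothelium, 1 was lower in WTCR, while 2 were higher and 2 lower in Dgat1-/-AL. Their summed signal was 12.04 to 12.19 in WTAL, 11.20 to 11.67 in WTCR and 11.80 to 12.10 in Dgat1-/-AL. Of 6 stellate cell markers, 2 were lower in WTCR. The summed hepatocyte signal was 16.78 to 16.80, 16.75 to 16.94 and 16.76 to 16.90 in the 3 groups, and of these markers only Hnf4a was called against WTAL, higher in WTCR by 0.40. Without WTAL replicate 2 the Kupffer cell and macrophage markers called lower were 3 in WTCR and 2 in Dgat1-/-AL, Cps1 joined Hnf4a in WTCR, and 1 T and NK cell marker, Nkg7, was lower in Dgat1-/-AL. The counts for B and plasma cells, sinusoidal endothelium and stellate cells stayed as they were. The part of these shifts in the results for the 10 genes was not tested.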

How the data were processed

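Liver RNA of 9 mice was hybridized to 9 arrays. Per the labels and the study's methods, the authors made log2 values with RMA (background correction, quantile normalization, probe summary; version not given in the sources used here) and deposited them for 28815 probe sets, of which 21780 had 1 gene symbol, 1605 several and 5430 none in the annotation. All probe sets were kept. Array medians were 5.80 to 5.84, and the number of arrays limits precision. limma 3.58.1 in R 4.3.3 fitted 1 mean per group with a spread shared over 9 arrays. Genes were called where the fold exceeded 1.3 with p under 0.05 before adjustment. Benjamini-Hochberg adjusted p covered every probe set. The fit was tested on simulated data. The 10 genes, the related lists and the named-gene rule (all 10 members, and each related gene called in any comparison) were chosen with earlier results of these data known. Promoter sequences were those of RefSeq (GRCm38.p6), and 8 of the 10 genes had a window that was searched; 1 sequence is not reported here. Alternatives left out each array, added the replicate number as a block, fitted only 2 groups, dropped low signals, added an intensity trend or array weights, or repeated quantile normalization. Deviations from the group means of same-numbered WTCR and Dgat1-/-AL arrays correlated at 0.477, 0.252 and 0.211, all over 0.1, so the numbers were taken to pair these 2 groups, from the data and not from the labels. The 6 pairs with a WTAL array gave -0.325 to 0.045. A block among the arrays of these 2 groups was added after the data had been seen.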

Additional observations from a re-analysis of the deposited data

How the results depend on the processing

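Of 460 log2 fold changes of the 10 genes under alternatives, 429 stayed on their side of the rule, 18 ended a call and 13 gained one. Of the 429, 21 turned their sign, all of them values that were not called, and 0 called values reversed. Some alternatives leave every fold change as it was and alter only its p, so no sign could turn there. These were the replicate block, the fit of only 2 groups, the dropping of low signals and the intensity trend. The same holds for leaving out an array outside the groups compared. With adjusted p in place of the rule, the genes higher in WTCR against WTAL went from 3 to 1, those higher in Dgat1-/-AL from 2 to 0, and those lower in WTCR than in Dgat1-/-AL from 2 to 0. Repeated quantile normalization added 1 lower gene in WTCR (Haao). With only the 2 groups compared in the fit, 1 gene was lower in the direct comparison. With array weights, Tdo2 was called in both groups against WTAL (0.41 and 0.50) and Aadat in Dgat1-/-AL was not (0.39). Repeated quantile normalization ended the Got2 call (0.48), and the fit of 2 groups the direct Nnmt call (-0.56). Leaving out 1 array at a time gave 2 to 4 higher and 0 lower genes in WTCR against WTAL, 1 to 3 higher and 0 to 1 lower in Dgat1-/-AL, and 1 to 3 higher and 1 to 2 lower in WTCR against Dgat1-/-AL. With Nampt alone as the salvage arm, de novo minus salvage in WTCR was -0.914 in place of -0.364. The cause of these shifts was not tested. Averaging several probe sets of a gene could not change a value, since each of the 10 genes has 1.

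With the replicate number as a block, 1 gene in place of 2 was lower in the direct comparison, since Acmsd (-0.51) was no longer called. With the block among the WTCR and Dgat1-/-AL arrays alone, which the numbers were taken to pair, the count was again 1. Neither block changed another call among the 10 genes. Over all groups, 7 of 18 best matches between arrays had their own number.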
